A study of Saccharomyces cerevisiae with 13 samples.

Results

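Gene expression of tRNA deletion strains of the budding yeast Saccharomyces cerevisiae was compared between 2 classes of deleted tRNA gene, using the arrays labelled as the second biological replicate. These are 5 of the 13 arrays of the series. The SC class comprised 3 arrays, of the strains labelled tM(CAU), tR(CCU)J and tL(GAG)G, and the MC class comprised 2 arrays, of the strains labelled tR(UCU)M2 and tH(GUG)G1. SC denotes tRNA genes that are the single copy of their family, plus the initiator methionine tRNA, and MC denotes genes of families with further copies left in the genome. The study describes the initiator deletion as that of 1 of its gene copies, so that SC strain also keeps further copies. The label tM(CAU) names no gene copy, and the copy tiM(CAU)C was inferred from the strain set of the study. Each strain stood on 1 array in this replicate, so a difference between the classes was set against the spread between arrays of a class. That spread mixes differences between strains with those between cultures, and the p-values are relative to it. The first replicate of the same 5 strains was used as a check, and 3 wild-type arrays gave the reference level. According to the methods, all strains were built in Y5565, a MATα strain that carries lyp1Δ, leu2Δ0 and ura3Δ0. In it mfα1Δ holds MFα1pr-LEU2 and can1Δ holds MFA1pr-HIS3, so that the wild type and both classes share these alleles by description. In each deletion strain the tRNA gene gave way to a hygromycin B resistance cassette. The wild-type control carries the same marker, inserted upstream of the tL(CAA)L3 locus. Cultures were grown in rich medium (YPD) at 30 °C to mid-log phase. Arrays of whole cultures cannot tell fewer cells of a kind from less RNA per cell.

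Each tRNA carries an amino acid to the ribosome and reads its codons there. The initiator methionine tRNA starts every protein chain. A tRNA of a multi-copy family, the initiator included, can be supplied by the copies that remain. The cell answers faulty or unfolded proteins with chaperones, which refold them, and with the ubiquitin-proteasome system, which degrades them. The supply of amino acids and charged tRNAs is read by the general amino acid control and by the TOR pathway. These set the transcription of amino acid biosynthesis enzymes, of permeases, and of the genes for ribosomes and their assembly.

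The deletions are defined by the stretches of genome flanking each tRNA gene that the deletion primers carried. They are shown because they are the strain-defining sequences: the arrays hold no probe sets for tRNA genes, so the deletions are not visible in the expression values. Each is 45 bases long, printed 5′ to 3′ as the study lists it, with the upstream and the downstream primer on lines of their own. The primers of the first strain come from the entry tM(CAU)C, taken here as the gene that the study's text names tiM(CAU)C. No base is in capitals because no motif was searched.
tM(CAU), listed as tiM(CAU)C, upstream: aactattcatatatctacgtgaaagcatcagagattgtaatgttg
tM(CAU), listed as tiM(CAU)C, downstream: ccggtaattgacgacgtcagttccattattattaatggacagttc
tR(CCU)J upstream: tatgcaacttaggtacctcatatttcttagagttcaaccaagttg
tR(CCU)J downstream: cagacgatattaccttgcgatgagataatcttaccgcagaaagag
tL(GAG)G upstream: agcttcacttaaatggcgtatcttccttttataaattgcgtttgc
tL(GAG)G downstream: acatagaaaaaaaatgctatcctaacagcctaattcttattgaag
tR(UCU)M2 upstream: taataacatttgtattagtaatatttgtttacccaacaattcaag
tR(UCU)M2 downstream: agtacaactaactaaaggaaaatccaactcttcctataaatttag
tH(GUG)G1 upstream: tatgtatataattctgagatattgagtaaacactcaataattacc
tH(GUG)G1 downstream: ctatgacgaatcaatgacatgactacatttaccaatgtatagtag

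A total of 5446 protein-coding genes were measured on the Affymetrix Yeast Genome 2.0 arrays, and the log2 of the deposited signal was taken. The median signal of the genes was 570.9, 584.0 and 538.6 on the SC arrays and 510.8 and 551.5 on the MC arrays. The arrays also carry probe sets for another yeast, Schizosaccharomyces pombe, and their 95th percentile on an array was taken as its background. It lay at log2 signals of 3.69 to 4.0, with 96.5 to 97.8% of genes above it. The ratio of the 3′ to the 5′ ACT1 probe set, a sign of RNA integrity, was 0.57, 0.64 and 0.78 in log2 on the SC arrays and 0.99 and 0.64 on the MC arrays, so the tR(UCU)M2 array stood highest. All 5 arrays correlated best with the same wild-type array, the third (r = 0.965 to 0.987 across bright genes of mean log2 signal over 8). In replicate 1 the SC arrays correlated best with the first wild-type array and the MC arrays with the second, so there the class and the set of arrays cannot be told apart. The methods and labels name no batch for single arrays.

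Few genes separated the classes once the spread between strains and cultures was counted. Of 5446 genes, 2 passed limma's two-group test with Benjamini-Hochberg adjustment (0.0367% at an adjusted p under 0.05), and both were higher in SC. At an unadjusted p under 0.05 the count was 308 (5.66%), 232 of them higher and 76 lower in SC. The difference of SC minus MC was positive for 3297 genes (60.5%), with a median of 0.06 in log2 and a median standard error of 0.16. All 3 SC arrays lay above both MC arrays for 1016 genes (18.7%) and below both for 514 genes (9.44%). These 2 shares are the background for the gene groups described here. The group counts are without a test, and gene groups that the study itself picked out on these arrays, among them the proteasome, the endoplasmic reticulum, the ribosome, RNA polymerase and amino acid synthesis, are not independent evidence of their direction. An exact permutation test of a single value over 3 against 2 arrays has 10 splits and cannot go below p = 0.1.

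Differences between strains of a class overlapped in size with those between the classes. The SD of the log2 difference between 2 arrays across bright genes was 0.274 to 0.395 for the 3 pairs of SC strains and 0.195 for the pair of MC strains. Between an SC and an MC strain it was 0.248 to 0.492. The tR(CCU)J array stood farthest from the others, and its pairs with tM(CAU) and tL(GAG)G (0.395 and 0.392) had a larger SD than any pair of those 2 strains with an MC strain (0.248 to 0.345).

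The 2 genes that passed were MF(ALPHA)1 and COS8. Throughout, values are log2 signals in the order tM(CAU), tR(CCU)J and tL(GAG)G for SC and tR(UCU)M2 and tH(GUG)G1 for MC. MF(ALPHA)1 (YPL187W), which encodes the main precursor of the mating pheromone alpha factor, read 12.77, 12.44 and 12.73 in SC and 3.30 and 2.79 in MC. The SC arrays were all bright, and both MC arrays were not above background. MF(ALPHA)1 was at least 470.0-fold higher in SC, counting the MC arrays at background (measured difference 9.61 ± 0.20 SE, limma adjusted p = 4.55e-05). The wild-type arrays read 2.54 to 4.89. The Y5565 genotype has MF(ALPHA)1 deleted, so the signal of the 3 SC arrays goes against the genotype given for the strains, and the same was seen in replicate 1 (a difference of 8.87). Whatever in the strains goes with this signal and the class of the deleted tRNA gene cannot be told apart in any comparison reported here, since it separates all SC from all MC arrays.

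COS8 (YHL048W), a subtelomeric member of the COS family of membrane proteins with a role in protein sorting to the vacuole, rose in SC. It read 8.97, 8.27 and 9.21 in SC and 3.12 and 3.74 in MC, with 1 MC array not above background. The classes were far apart, and COS8 was at least 32.5-fold higher in SC (measured difference 5.39 ± 0.33 SE, limma adjusted p = 0.0109). In replicate 1 it read 8.93, 8.97 and 9.42 in SC against 3.59 and 5.0 in MC, while wild type lay at 4.11 to 4.71. The other 8 COS genes with a probe set had differences of -1.13 to 0.07 in replicate 2, and in none of them did the classes separate. The size of the COS8 difference held on leaving out any array (5.08 to 5.69), but limma's adjusted p was 0.0623 without tM(CAU), 0.252 without tR(UCU)M2 and 0.0749 without tH(GUG)G1.

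Other genes of mating type gave no contrast of that size. The alpha-specific genes MF(ALPHA)2, STE3 and SAG1, which encode a second alpha-factor precursor, the a-factor receptor and the alpha agglutinin, were bright on all 5 arrays, as the MATα label requires. MF(ALPHA)2 read 12.39, 12.08 and 12.50 in SC and 12.44 and 12.39 in MC, so the classes overlapped, with a difference of -0.09 ± 0.16 (SE). STE3 had the same difference, -0.09 ± 0.16 (SE), and SAG1 had -0.28 ± 0.36 (SE), with a lower reading of 10.64 on the tR(CCU)J array against 11.54 to 11.76 elsewhere. The alpha-specific gene AFB1 had a difference of 0.23 ± 0.14 (SE), with all SC arrays above by at least 0.02, and -0.39 in replicate 1. All 7 a-specific genes were dim, with positive differences (median 0.25). The most separated was ASG7, at 4.51, 3.69 and 4.52 in SC and 1.40 and 2.41 in MC, around or below background (2.34 ± 0.39 SE, limma adjusted p = 0.363). ASG7 was separated in replicate 1 too, with a difference of 3.49, and passed when 1 mean per strain was used (limma adjusted p = 0.00106). The marker genes LEU2 and HIS3, both carried by the strain's cassettes, were bright on all 5 arrays, and LEU2 read 12.71, 12.49 and 12.86 in SC and 13.18 and 12.96 in MC. The genes listed as deleted, CAN1, LYP1 and URA3, were at or below background (log2 signals of -0.86 to 3.84).

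**Figure D1:**
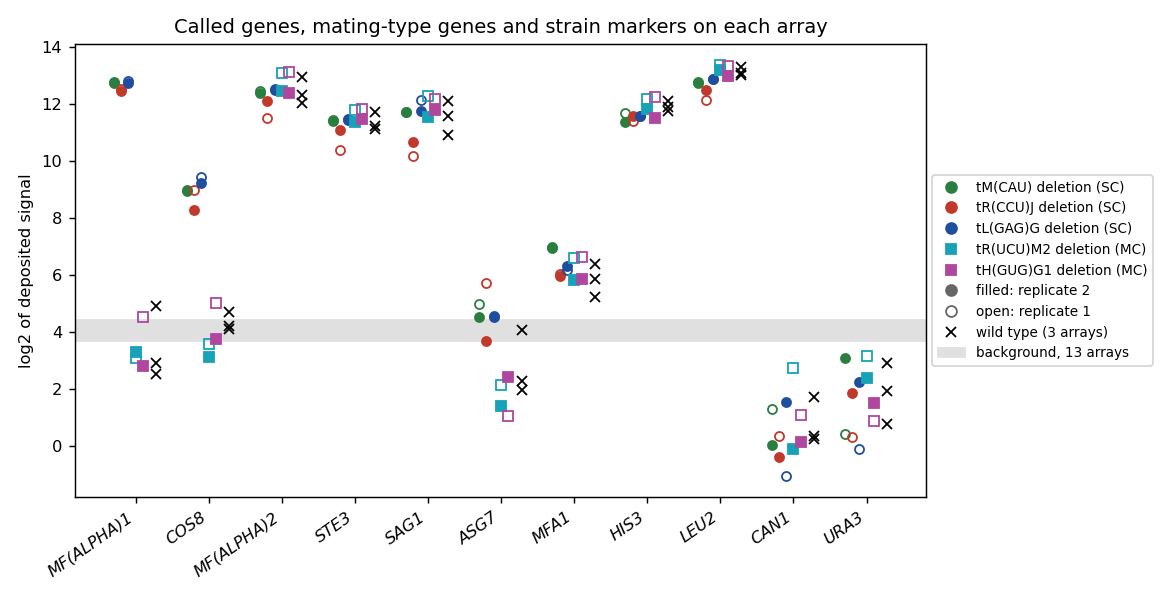
Log2 signal (y axis) of the 2 called genes, COS8 and MF(ALPHA)1, and of mating-type and strain-marker genes on each array, with filled symbols for replicate 2 and open symbols for replicate 1 by strain, crosses for the 3 wild-type arrays, and the range of background as a band. In replicate 2 the SC arrays lie at 8.27 to 9.21 for COS8 and 12.44 to 12.77 for MF(ALPHA)1, above the MC arrays, while MF(ALPHA)2 and STE3 overlap.

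Genes of the proteasome, the barrel-shaped protease that degrades ubiquitin-tagged proteins, were mostly higher in SC by small amounts. Of 45 genes, 42 had a positive difference (median 0.24, range -0.03 to 0.45, against 0.06 over all genes). All 3 SC arrays lay above both MC arrays for 22 of them, where 18.7% of all genes did so, and below for 0. No member passed the test, and the study picked out this pathway on these arrays. The pattern ran through the whole particle. All 7 genes of the core alpha ring (median 0.24), all 7 of the beta ring that holds the catalytic sites (0.30), 9 of 10 of the base that unfolds substrates (0.27) and all 9 of the lid (0.27) had positive differences. Assembly factors and regulators were lower, at 0.14, with 10 of 12 positive. PRE1, a beta subunit, read 11.47, 11.76 and 11.65 in SC and 11.15 and 11.31 in MC, a difference of 0.40 ± 0.15 (SE). The ubiquitin receptor RPN10 read 10.92, 11.27 and 10.91 against 10.61 and 10.69 (0.39 ± 0.16 SE). The assembly chaperone UMP1 read 10.97, 11.43 and 11.07 against 10.76 and 10.75 (0.40 ± 0.17 SE). In these genes the tR(CCU)J array was the highest, and the smallest gap between the classes was 0.16 for PRE1, 0.22 for RPN10 and 0.21 for UMP1. The same order held over the group, whose median deviation from the mean of the 5 arrays was 0.29 for tR(CCU)J, -0.01 for tM(CAU) and 0.03 for tL(GAG)G, against -0.20 and -0.09 for the MC arrays. Without the tR(CCU)J array the median difference was 0.15.

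The enzymes that attach ubiquitin and the shuttles that deliver tagged proteins showed the same sign. All 24 had positive differences in replicate 2 (median 0.20), with the SC arrays above in 8, while 1 of the 4 ubiquitin genes did (median -0.14). For the 28 genes together the median was 0.19, and it was 0.10 without tR(CCU)J, 0.12 without tR(UCU)M2 and 0.32 without tH(GUG)G1. DDI1, a shuttle with a protease-like domain, read 7.69, 8.08 and 7.82 in SC and 6.88 and 7.17 in MC (0.84 ± 0.18 SE). SHP1, a cofactor of the unfoldase Cdc48, read 10.68, 10.92 and 10.90 against 10.37 and 10.29 (0.51 ± 0.14 SE). Both genes were separated between the classes in replicate 2, and SHP1 also in replicate 1. Neither passed the test (limma adjusted p = 0.729 for both).

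Heat shock chaperones included several of the largest single differences. Of 28 cytosolic heat shock genes, 21 had a positive difference (median 0.22), against 60.5% of all genes. The SC arrays lay above in 9, where 18.7% of all genes did so, and below in 0. None of the 28 passed the test. The median was 0.10 without tR(CCU)J and 0.37 without tL(GAG)G. SIS1, the essential Hsp40 partner of Hsp70, read 11.36, 11.44 and 11.25 in SC and 10.21 and 10.35 in MC. The 3 SC arrays were within 0.19 of each other and all about 1 unit above the MC arrays (1.07 ± 0.13 SE, limma adjusted p = 0.196). Wild type spanned 9.98 to 10.83, from below the MC arrays to a level between the classes. HSP104, the disaggregase, read 11.40, 11.16 and 10.14 against 9.52 and 9.91 (1.19 ± 0.39 SE). Here tL(GAG)G lay close to the MC arrays. The same held for BTN2, which gathers misfolded proteins, at 9.75, 10.32 and 8.44 against 7.82 and 8.18 (1.5 ± 0.54 SE). Its relative CUR1 read 7.94, 9.01 and 8.09 against 6.61 and 7.12 (1.48 ± 0.36 SE). HSP42, a small heat shock protein, read 8.90, 9.08 and 8.13 against 7.37 and 7.49 (1.27 ± 0.30 SE). In these genes the MC arrays were always the lowest, and in BTN2 and HSP42 the SC strain nearest to them was tL(GAG)G. By role, 8 of 10 genes of the Hsp70 system (median 0.21) and 6 of 7 small heat shock proteins and sequestrases (0.25) had positive differences. For the Hsp90 system it was 6 of 10 (0.10), near the 60.5% of all genes. The small heat shock subgroup also held a difference of -1.09. Its median deviation was 0.63, 0.89 and -0.46 in SC and -0.41 and -0.17 in MC, so tL(GAG)G stood lowest. Over the 28 genes tL(GAG)G (-0.12) lay beside tH(GUG)G1 (-0.11).

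HSP82, the heat-inducible Hsp90, had the largest shift between replicates of the chaperones named. It read 11.18, 11.46 and 10.49 in SC and 9.85 and 10.14 in MC in replicate 2 (1.05 ± 0.30 SE, limma adjusted p = 0.729). In replicate 1 it read 11.01, 10.51 and 10.92 against 7.53 and 7.48, a difference of 3.31 that passed the test (limma adjusted p = 0.0106). The replicates differed mainly on the MC arrays. The wild-type arrays themselves spread over 7.79 to 10.93, and the third, at 10.93, lay within the SC range of replicate 2. The difference between the replicates was -2.26 ± 0.40 (SE) and did not pass (limma adjusted p = 0.264).

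Chaperones of the mitochondrion had a median of 0.21 in SC minus MC (7 of 10 positive, against 60.5% of all genes). HSP78, the mitochondrial disaggregase, read 8.81, 9.44 and 7.73 in SC and 6.53 and 7.14 in MC (1.83 ± 0.50 SE). MDJ1, the Hsp40 of the matrix, read 10.16, 10.78 and 10.05 against 9.30 and 9.46 (0.95 ± 0.24 SE). Both were separated in both replicates. The third wild-type array read 7.90 for HSP78 and 10.15 for MDJ1, within the replicate 2 SC range of each. The CCT chaperonin, which folds actin and tubulin and is not part of the heat shock group, had 3 of 8 genes positive and a median of -0.02. In the endoplasmic reticulum group, 26 of 42 genes were positive (median 0.07, near the 0.06 of all genes), with 9 of 12 positive among genes for degradation (median 0.20) and 0 of 3 among those for stress control (-0.20). HRD3, a partner of the ubiquitin ligase of the endoplasmic reticulum, read 8.50, 8.42 and 8.58 against 8.06 and 8.32 (0.31 ± 0.14 SE), so the classes stood 0.10 apart at their nearest arrays.

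**Figure D2:**
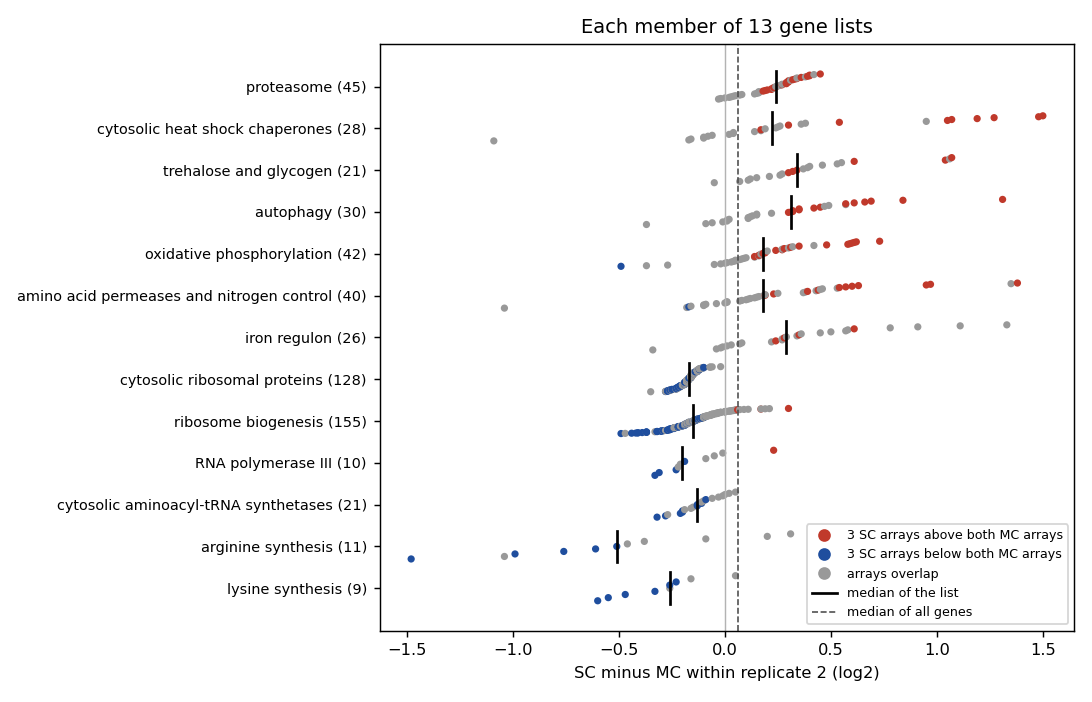
SC minus MC difference within replicate 2 in log2 (x axis) of each gene of 13 gene groups, coloured by whether the arrays of the classes overlap, with the median of each group as a bar and that of all genes (0.06) as a dashed line. Proteasome genes lie between -0.03 and 0.45, and cytosolic ribosomal protein genes between -0.35 and -0.02.

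Genes of the general stress response, which the factors Msn2 and Msn4 switch on, were mainly high in 1 strain. Of 40 genes, 29 had a positive difference (median 0.28), and the SC arrays lay above in 9, near the 18.7% share of all genes. The group's median deviation was 0.49 on the tR(CCU)J array, but -0.03 for tM(CAU) and -0.27 for tL(GAG)G, against -0.24 and -0.12 for the MC arrays, so tL(GAG)G was as low as an MC strain. Without tR(CCU)J the median difference was 0.04, and without tL(GAG)G it was 0.50. PNC1, which recycles nicotinamide, read 9.73, 10.91 and 9.86 in SC and 8.84 and 8.91 in MC (1.29 ± 0.36 SE). Its classes overlapped in replicate 1, with a difference of -0.37.

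Enzymes of trehalose and glycogen, the storage carbohydrates of yeast, followed the same order of strains. Of 21 genes, 20 were positive (median 0.34), with medians of 0.37 for trehalose and 0.31 for glycogen. The SC arrays lay above in 6 of the 21, where 18.7% of all genes did so. The median deviation was 0.61 for tR(CCU)J, 0.01 for tM(CAU) and -0.16 for tL(GAG)G, against -0.23 and -0.12 for MC. Without tR(CCU)J the median difference was 0.14. TPS1, the trehalose-6-phosphate synthase, read 9.50, 10.46 and 9.74 against 9.18 and 9.40 (0.61 ± 0.30 SE). GSY1, a glycogen synthase, read 6.63, 7.68 and 6.59 against 6.0 and 5.80 (1.07 ± 0.35 SE). In both genes tR(CCU)J lay well above the other SC arrays.

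Autophagy genes, which build the vesicles that carry cytoplasm to the vacuole, were positive in 26 of 30 cases (median 0.31), with the SC arrays above in 13 and below in 0. ATG8, the ubiquitin-like protein of the forming vesicle, read 8.44, 9.99 and 8.28 in SC and 7.50 and 7.70 in MC (1.31 ± 0.52 SE). ATG13 and ATG17 encode parts of the starting complex. ATG13 read 7.34, 7.86 and 7.28 against 6.73 and 6.88 (0.69 ± 0.21 SE). ATG17 read 6.85, 7.99 and 7.29 against 6.24 and 6.83, so its lowest SC array lay 0.02 above the higher MC array (0.84 ± 0.36 SE). The tR(CCU)J array was the highest for all 3 genes. Among group members with a mean log2 signal over 8 the median was 0.13, and without tR(UCU)M2 it was 0.20 over the whole group.

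Respiratory genes were mostly positive as well. Of 42 genes of oxidative phosphorylation, 37 were positive (median 0.18), with the SC arrays above in 19 and below in 1. The median deviation was 0.16 for tM(CAU), 0.08 for tL(GAG)G and -0.05 for tR(CCU)J, against -0.10 and -0.12 for MC. In replicate 1 the order of the SC strains was the reverse, at -0.15, 0.10 and 0.15. All 9 genes of complex III (median 0.27), 13 of 15 of the ATP synthase (0.17) and 9 of 11 of complex IV (0.09) were positive. CYT1, cytochrome c1 of complex III, read 9.79, 10 and 9.72 in SC and 9.19 and 9.28 in MC (0.60 ± 0.14 SE). INH1, the inhibitor of the ATP synthase, read 9.92, 10.01 and 9.63 against 9.28 and 9.20 (0.62 ± 0.16 SE). The inner-membrane NADH dehydrogenase NDI1 read 7.33, 7.20 and 7.01 against 6.69 and 6.21 (0.73 ± 0.19 SE). In these genes the classes stood at least 0.32 apart. In replicate 1 the group median was 0.05, against 0.14 over all genes. There 9 of the 42 members had all SC arrays above, a share below the 36.4% of all genes.

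Genes of the citrate cycle were positive in 18 of 24 cases (median 0.12, or 0.03 after median centring and 0.07 after quantile normalization). CIT1, the citrate synthase that starts the cycle, read 9.88, 10.84 and 10.15 in SC and 9.11 and 9.58 in MC (0.94 ± 0.31 SE). Genes for the mitochondrial ribosome were positive in 57 of 72 cases (median 0.14, SC arrays above in 23 and below in 3), whereas those for the cytosolic ribosome were negative throughout. In replicate 1 the mitochondrial ribosome group had a median of 0.04, against 0.14 over all genes. Its replicate 2 median was 0.05 after median centring and 0.08 after quantile normalization. All genes had -0.03 and 0.0 in those settings.

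Genes of membrane traffic and of the cell cycle were slightly higher in SC. Endocytosis and vacuolar sorting genes were positive in 34 of 39 cases (median 0.19), against 60.5% of all genes. Their SC arrays lay above in 13, where 18.7% of all genes did so, and below in 0. SNARE genes, whose proteins fuse vesicles with their target, were positive in 21 of 24 cases (median 0.20). The endocytosis median was 0.09 without tR(UCU)M2 and 0.29 without tH(GUG)G1. ENT2, an epsin that binds ubiquitin-tagged cargo, read 8.55, 8.52 and 8.68 in SC and 7.47 and 8.02 in MC (0.85 ± 0.19 SE). SLA1, an actin-patch adaptor, read 9.25, 9.27 and 9.38 against 8.68 and 8.92 (0.50 ± 0.14 SE). The 3 SC arrays lay close together in both genes. Cell cycle genes were positive in 36 of 44 cases (median 0.16, or 0.09 without tR(UCU)M2), with the SC arrays above in 15. CLB6, an S-phase cyclin, read 9.11, 9.10 and 9.22 against 8.73 and 8.73 (0.42 ± 0.12 SE). WHI5, which holds back Start, read 4.46, 4.33 and 5.18 against 3.35 and 3.46, with the MC arrays below background, and had a difference of 1.26 ± 0.27 (SE) in replicate 2 and 0.00 in replicate 1. Among genes of recombination and mismatch repair, 13 of 20 were positive (median 0.10), near the 60.5% of all genes. On leaving out an array their median was 0.03 to 0.19, lowest without tR(CCU)J and highest without tL(GAG)G. RAD52, the central recombination protein, read 9.23, 9.37 and 9.35 against 8.74 and 8.92 (0.49 ± 0.13 SE). These pathways are also among those the study picked out on these arrays.

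Genes for the cytosolic ribosome had the other sign throughout. All 128 ribosomal protein genes had a negative difference (median -0.17, range -0.35 to -0.02, against 0.06 over all genes). The SC arrays lay below both MC arrays for 34 of them, where 9.44% of all genes did so, and above for 0. No member passed the test, and this too is a pathway the study picked out. The median was -0.18 for the 75 genes of the large subunit and -0.16 for the 53 of the small. RPL9B, a large-subunit gene, read 12.12, 12.06 and 11.96 in SC and 12.39 and 12.24 in MC (-0.27 ± 0.13 SE). RPS1B read 12.93, 12.86 and 12.77 against 13.23 and 13.02 (-0.27 ± 0.14 SE). RPL15A read 12.64, 12.62 and 12.74 against 13.05 and 12.80 (-0.26 ± 0.14 SE). In each, tR(UCU)M2 was the highest array and tH(GUG)G1 lay 0.06 to 0.12 above the highest SC array. Most of these genes have a near-identical second copy, so signals of single members are uncertain. The group leaned on tR(UCU)M2, whose median deviation was 0.26, against -0.04 for tH(GUG)G1 and -0.08, -0.11 and -0.02 for SC. That array also had the highest ACT1 ratio (0.99), whose part in the result was not tested. Without tR(UCU)M2 the median difference was -0.03, and without tH(GUG)G1 it was -0.33. After quantile normalization it was -0.01.

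Genes that assemble ribosomes did not share that dependence. Of 155 ribosome biogenesis genes, 133 had a negative difference (median -0.15), with the SC arrays below in 55 and above in 3. The median deviation was -0.19 for tR(CCU)J, -0.02 for tM(CAU) and 0.04 for tL(GAG)G, against 0.10 and 0.08 for the MC arrays, which stood together. Without tR(CCU)J the median difference was -0.07, and without tR(UCU)M2 it was -0.13. DHR2, a helicase of the small-subunit processome, read 10.12, 9.87 and 9.88 in SC and 10.30 and 10.34 in MC (-0.37 ± 0.14 SE). NOG1, a GTPase of large-subunit assembly, read 11.40, 11.06 and 11.11 against 11.72 and 11.49 (-0.42 ± 0.16 SE). Both genes were separated between the classes in replicate 2. In replicate 1 their differences were 0.14 and -0.08, and the group's median was -0.06.

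RNA polymerases I and III, which transcribe ribosomal RNA and tRNA, had mostly negative differences in replicate 2. Of the 10 subunits particular to polymerase III, 9 were negative (median -0.20, SC arrays below in 4), as were all 7 of polymerase I (-0.11, below in 4) and all 7 of the shared subunits (-0.15, below in 4). Polymerase II had 4 of 7 negative and a median of -0.01 in replicate 2, but in replicate 1 its median was -0.18, farther from 0 than that of polymerase I (-0.08) or III (-0.07). RPC34 read 10.27, 10.27 and 10.39 in SC and 10.62 and 10.65 in MC (-0.33 ± 0.12 SE). RET1, the second largest subunit of polymerase III, read 10.63, 10.33 and 10.63 against 10.85 and 10.84 (-0.31 ± 0.15 SE). For these 2 genes the MC arrays agreed within 0.03. RPC40, shared by polymerases I and III, was low on 1 array, at 10.90 for tR(CCU)J against 11.85 to 11.99 on the other 4, and in replicate 1 the same strain read 11.17 against 11.93 to 12.23. Without tR(CCU)J the median was -0.12 for polymerase III and -0.09 for the shared subunits. The initiation factors of polymerase III and its repressor had the opposite sign, with 9 of 11 positive (median 0.17), but the median was 0.06 without tR(UCU)M2 or after quantile normalization, 0.09 without tR(CCU)J and 0.26 without tH(GUG)G1. Among them TFC6, part of the factor that binds tRNA genes, read 8.29, 8.28 and 8.35 against 8.05 and 8.12 (0.22 ± 0.12 SE), and BDP1 had a difference of 0.30 ± 0.18 (SE).

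Genes that charge and modify tRNAs were mostly negative by small amounts in replicate 2, and in replicate 1 the median was -0.06 for charging and 0.04 for modification. Of 21 cytosolic aminoacyl-tRNA synthetase genes, 18 were negative (median -0.13), with the SC arrays below in 9 and above in 0. CDC60, the leucyl-tRNA synthetase, read 11.54, 11.44 and 11.59 in SC and 11.91 and 11.76 in MC (-0.32 ± 0.13 SE). The array of the leucine tRNA deletion, tL(GAG)G, was not set apart from the other SC arrays. Of 62 genes for tRNA modification and processing, 46 were negative (median -0.07, or -0.02 without tR(CCU)J and -0.12 without tM(CAU) or tL(GAG)G), with the SC arrays below in 14. TRM13, a tRNA 2′-O-methyltransferase, read 8.78, 8.41 and 8.76 against 9.09 and 9.02 (-0.41 ± 0.16 SE). Translation factors had 35 of 44 negative (median -0.10, or -0.05 without tR(CCU)J or tR(UCU)M2 and -0.03 after quantile normalization). These included all 14 of elongation and termination (-0.16), with the SC arrays below in 4. That subgroup leaned on tR(UCU)M2, whose median deviation was 0.22, against -0.01 for tH(GUG)G1 and -0.07, -0.11 and -0.01 for SC. The translation factor with the largest difference was ANB1, the form of eIF5A used at low oxygen. It read 9.36, 8.13 and 8.72 against 9.94 and 9.83 (-1.15 ± 0.35 SE).

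**Figure D3:**
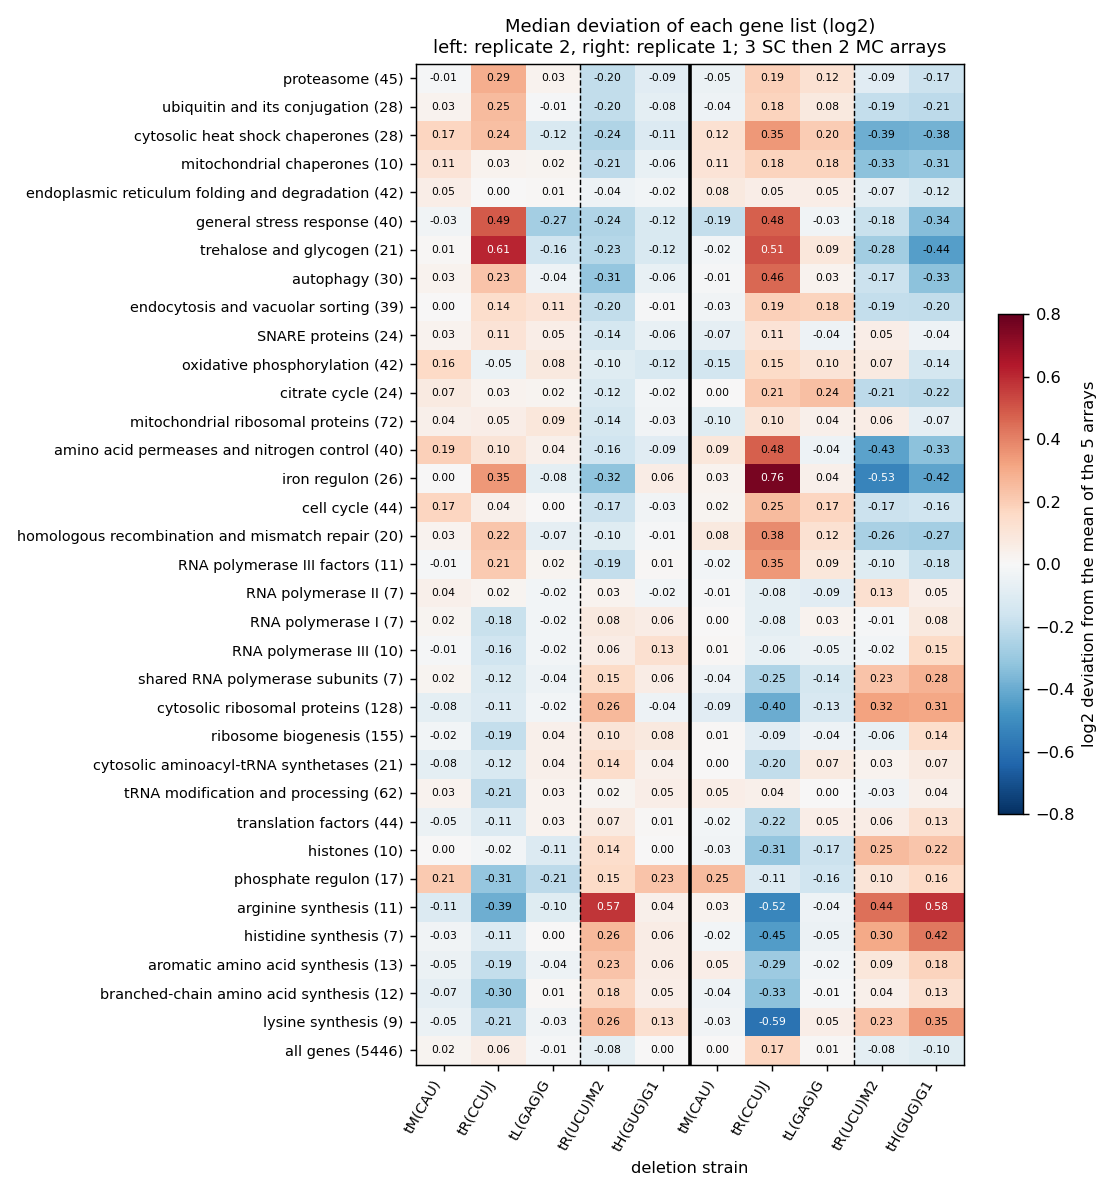
Median deviation of each gene group from the mean of the 5 arrays of a replicate, in log2 (numbers and colour scale), by group (rows) and array (columns), with replicate 2 in the left block, the same for replicate 1 in the right block, and the number of genes in parentheses. In replicate 2 the tR(CCU)J array reaches 0.61 for trehalose and glycogen and 0.49 for general stress, and tR(UCU)M2 reaches 0.57 for arginine synthesis and 0.26 for cytosolic ribosomal proteins.

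Enzymes of amino acid synthesis were lower in SC in several pathways that Gcn4, the activator of the general amino acid control, regulates, and the study also picked these pathways. Arginine synthesis had 9 of 11 genes negative (median -0.51), histidine all 7 (-0.34), aromatic amino acids 12 of 13 (-0.30), lysine 8 of 9 (-0.26) and branched-chain amino acids 11 of 12 (-0.21). The SC arrays lay below both MC arrays for 5, 1, 6, 6 and 4 of these genes, in that order, where 9.44% of all genes did so. No member passed the test. ARG3, the ornithine carbamoyltransferase, read 9.91, 8.30 and 10.09 in SC and 11.34 and 10.48 in MC (-1.48 ± 0.59 SE). ARG4, which makes arginine in the last step, read 10.85, 10.61 and 10.53 against 11.96 and 11.35 (-0.99 ± 0.22 SE). ARG8 read 10.66, 10.24 and 10.91 against 11.77 and 10.95 (-0.76 ± 0.31 SE). In these genes tR(UCU)M2, 1 of the 2 arginine tRNA deletions, was the highest array, and the tR(CCU)J strain, the other arginine tRNA deletion, was the lowest for ARG3 and ARG8. The group's median deviation was 0.57 for tR(UCU)M2, 0.04 for tH(GUG)G1, and -0.11, -0.39 and -0.10 for SC. Without tR(UCU)M2 the median difference of arginine synthesis was -0.25, and without tH(GUG)G1 it was -0.77. Without tR(UCU)M2 the medians were -0.19 for histidine, -0.18 for aromatic and -0.12 for branched-chain amino acids, and without tR(CCU)J they were -0.20 for histidine and -0.13 for branched-chain amino acids.

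Other pathways gave smaller values of the same sign. HIS4, of histidine synthesis, read 11.20, 10.26 and 11.30 in SC and 11.80 and 11.27 in MC, so the classes overlapped (-0.62 ± 0.36 SE). HIS5 read 10.09, 9.86 and 9.99 against 10.50 and 10.17 (-0.36 ± 0.16 SE). The deletion strain of the histidine tRNA, tH(GUG)G1, was the lower MC array in both. ARO3, which starts aromatic synthesis, read 10.88, 10.85 and 10.98 against 11.41 and 11.08 (-0.34 ± 0.15 SE). LYS2, of lysine synthesis, read 10.94, 10.48 and 10.83 against 11.52 and 11.19 (-0.60 ± 0.19 SE), and LYS4 had a difference of -0.47 ± 0.17 (SE). PCL5, the cyclin that directs degradation of Gcn4, read 10.04, 9.79 and 9.79 against 11.08 and 10.45 (-0.89 ± 0.22 SE). Methionine and sulfur metabolism had 22 of 30 negative (median -0.14), but its median in replicate 1 was 0.18, and it was -0.06 without tR(CCU)J, -0.07 without tR(UCU)M2 and -0.25 without tM(CAU).

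Amino acid permeases and genes of nitrogen control had the opposite sign, with 31 of 40 positive (median 0.18, SC arrays above in 11 and below in 1). Over all genes the shares above and below were 18.7% and 9.44%. GAP1, the general amino acid permease, read 7.65, 7.71 and 7.18 in SC and 5.97 and 6.31 in MC (1.38 ± 0.21 SE, limma adjusted p = 0.308). Wild type, at 6.15 to 6.57, lay nearer to MC. AGP1, a broad-range permease, read 9.07, 8.97 and 9.27 against 8.21 and 8.09 (0.95 ± 0.14 SE, limma adjusted p = 0.308). GLN3, the nitrogen-responsive activator of such genes, read 7.47, 7.31 and 7.20 against 6.81 and 6.70 (0.57 ± 0.14 SE). These 3 genes were well separated in both replicates. AGP2, a regulator and permease for carnitine, had a difference of 0.97 ± 0.23 (SE). The genes for use of ammonium, allantoin and proline had a median of 0.39 (17 of 19 positive). The permeases had 0.11 (14 of 21 positive, near the 60.5% of all genes). Without tH(GUG)G1 the median of the whole group was 0.31.

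The iron regulon was positive in 22 of 26 genes (median 0.29). It had the SC arrays above in only 4, a share below the 18.7% of all genes. The median of the regulon was 0.13 without tR(UCU)M2, 0.15 without tR(CCU)J and 0.44 without tH(GUG)G1. AFT1, its activator, read 7.85, 7.90 and 8.05 in SC and 7.06 and 7.59 in MC (0.61 ± 0.19 SE). The phosphate regulon had 13 of 17 genes negative (median -0.31, or -0.14 without tR(CCU)J), with the SC arrays below in 3, against 9.44% of all genes. PHO11, an acid phosphatase, read 10.72, 8.71 and 9.75 against 10.87 and 11.36 (-1.39 ± 0.56 SE), so tM(CAU) lay 0.15 under the lower MC array. Histone genes, of which 8 of 10 were negative, had a median of -0.10 (-0.05 without tR(UCU)M2, -0.17 without tH(GUG)G1 and 0.01 after quantile normalization), and HTB1 a difference of -0.26 ± 0.14 (SE).

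Of the single genes with a mean log2 signal over 8 and classes that did not overlap, the 12 largest in each direction were examined. Those higher in SC that were not yet described included GDH1, the glutamate dehydrogenase that fixes ammonium, which read 11.89, 11.58 and 12.16 in SC and 11.05 and 10.80 in MC (0.95 ± 0.20 SE). Those lower in SC were a mixed set. RTC2, a vacuolar exporter of basic amino acids, read 7.87, 7.94 and 7.09 against 9.23 and 8.52 (-1.24 ± 0.34 SE). ADH5, an alcohol dehydrogenase, read 8.64, 8.28 and 8.42 against 9.86 and 9.38 (-1.18 ± 0.20 SE, limma adjusted p = 0.363). The SC arrays of ADH5 lay within 0.36 of each other and at least 0.74 below the MC arrays, and wild type, at 9.41 to 10.76, was also above them. BIO4, of biotin synthesis, read 8.46, 7.94 and 7.96 against 9.19 and 8.82 (-0.89 ± 0.22 SE). ZRT1, the high-affinity zinc transporter, read 9.72, 8.09 and 8.47 against 10.03 and 9.72, where tM(CAU) met the lower MC array to within rounding (-1.11 ± 0.48 SE). TIR1, a cell wall mannoprotein induced by cold and low oxygen, was low on the tR(CCU)J array alone, at 7.36 against 9.34 to 9.79 elsewhere, and its difference of -0.91 ± 0.63 (SE) rested on that strain. The exporter AQR1 (-0.95 ± 0.31 SE) and ATG41 (-1.30 ± 0.42 SE) complete the set, and ATG41 had -0.10 in replicate 1. Of the 12 genes in each direction, 10 that were higher and 10 that were lower also had classes that did not overlap, in the same direction, in replicate 1. Over all genes separated in replicate 2 the shares were 54.8% and 43.4%. In replicate 1 the class and the set of arrays cannot be told apart. None of the genes examined here apart from MF(ALPHA)1 passed the test.

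**Figure D4:**
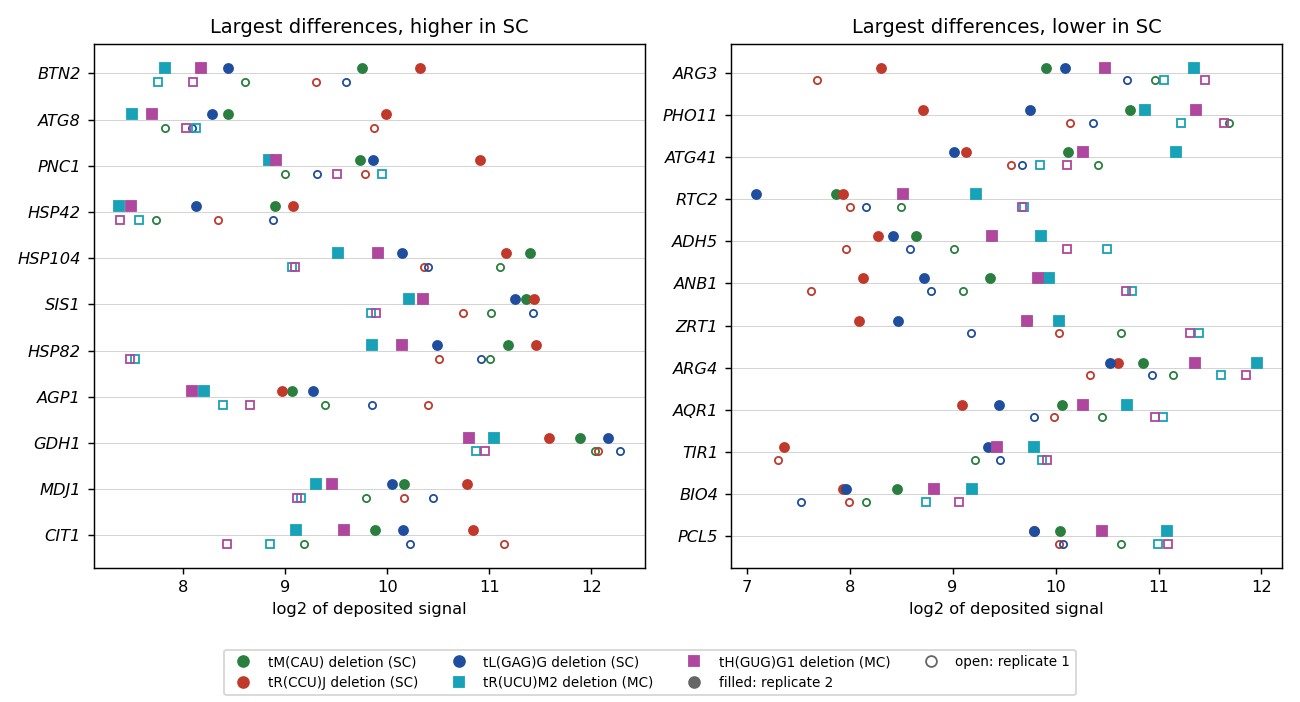
Log2 signal (x axis) on each deletion array for the genes with the largest class differences in replicate 2 (filled symbols), with replicate 1 as open symbols; MF(ALPHA)1 is left out for scale. SIS1 shows the tightest SC arrays (11.25 to 11.44) above the MC arrays (10.21 and 10.35), and TIR1 shows a single low strain, tR(CCU)J, at 7.36.

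Just outside the threshold stood 2 dim genes, chosen after their values were seen. YIR021W-A read -0.12, 0.50 and 0.57 in SC and 2.93 and 3.10 in MC (-2.70 ± 0.24 SE, limma adjusted p = 0.0595). IME4, an RNA methyltransferase of meiosis, read -1.24, -1.17 and -0.16 against 3.09 and 2.52 (-3.66 ± 0.37 SE, limma adjusted p = 0.102). Both were below background on all 5 arrays, and in replicate 1 their differences were 0.33 and -0.70. Of 86 genes with a difference over 1 in size, 22 had a mean log2 signal over 8.

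Genes next to the deleted tRNA genes, as listed by the study, were read in the strain of each deletion against the other 4 arrays, without a test. Of the 10 genes, 4 lay below the other arrays in replicate 2, 2 above and 4 within their range. Some array is the lowest and some array the highest for every gene, so a place outside the range of the other 4 is common. How often this holds over all genes was not counted, and an effect of the deletion on its neighbours was not tested. KCH1, VOA1, KEX1 and SRD1 were within it, and MAK32 was above it at 8.59 against 8.28 to 8.51 and within it in replicate 1. HIT1, a factor of snoRNP assembly beside tR(CCU)J, read 7.03 in that strain and 8.76 to 9.26 in the others, but in replicate 1 it read 8.81 against 8.81 to 9.25. CLB1, a mitotic cyclin beside tL(GAG)G, read 9.26 against 9.67 to 10.07, and 9.65 against 9.92 to 10.49 in replicate 1. COG8 and DAK1, on either side of tR(UCU)M2, were the lowest in that strain in both replicates. COG8, part of a Golgi tether, read 9.03 against 9.18 to 9.51, and 8.40 against 9.15 to 9.62 in replicate 1. DAK1, a dihydroxyacetone kinase, read 10.75 against 10.80 to 11.44, and 9.96 against 10.28 to 11.16. POX1, the acyl-CoA oxidase beside tH(GUG)G1, was the highest in that strain in both, at 5.70 against 3.78 to 4.40 and at 5.90 against 4.26 to 5.34. SRD1, beside the tM(CAU) gene, stayed within the range of the other arrays in its own strain, and was lowest in tR(CCU)J at 8.64. None of these genes counted among those that separated SC from MC by the test.

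The comparison was repeated in the replicate 1 arrays of the same strains. In these, limma again called 2 genes (0.0367%), MF(ALPHA)1 and HSP82, and COS8 had a difference of 4.81 (limma adjusted p = 0.0562). At an unadjusted p under 0.05 there were 1433 genes, against 308 in replicate 2. All SC arrays lay above all MC arrays for 1980 genes (36.4%) and below for 913 (16.8%), and the median difference over all genes was 0.14. Of the genes with the SC arrays above in replicate 2, 54.8% were above in replicate 1 as well, which is 28.1% of those of replicate 1. Of those below, the shares were 43.4% and 24.4%. The classes were separated in opposite directions in 94 genes. No gene passed limma's test of the difference between the replicates (0 called, smallest adjusted p = 0.264), and 844 genes had an unadjusted p under 0.05 for it.

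Of the 56 gene groups, 20 had a positive median in both replicates and 21 a negative one in both, with sizes that differed. The proteasome had a median of 0.21 in replicate 1 and 0.24 in replicate 2, where all genes had 0.14 and 0.06. Of its 45 genes, 37 were positive in both, as were 2586 of all 5446 genes. In replicate 1 the SC arrays lay above in 19 proteasome genes and below in 3, where 36.4% and 16.8% of all genes did so. Replicate 1 gave larger medians for heat shock chaperones (0.62 against 0.22), for amino acid permeases and nitrogen control (0.70 against 0.18), for the iron regulon (0.80 against 0.29) and for trehalose and glycogen (0.63 against 0.34). It also gave the larger negative median for cytosolic ribosomal proteins (-0.52 against -0.17), with 127 of 128 genes negative in both, and for arginine synthesis (-0.92 against -0.51). Replicate 2 had the median farther from 0 for oxidative phosphorylation (0.18 against 0.05), the mitochondrial ribosome (0.14 against 0.04), SNARE genes (0.20 against -0.01), ribosome biogenesis (-0.15 against -0.06) and polymerase III (-0.20 against -0.07). The tR(CCU)J strain stood highest for the general stress genes both times, at a median deviation of 0.49 in replicate 2 and 0.48 in replicate 1. The tH(GUG)G1 strain read -0.04 in replicate 2 and 0.31 in replicate 1 for cytosolic ribosomal proteins, and 0.04 and 0.58 for arginine synthesis. With all 10 deletion arrays and the replicate number as a block, limma called 14 genes, 11 higher and 3 lower in SC, against 2 within replicate 2. Among them were SIS1 (adjusted p = 0.0096), GDH1 (0.01), ASG7 (0.0148), GLN3 (0.0234), HSP78, RTC2 and ADH5 (0.0325 each), and AGP1 and SLA1 (0.0442 each). That fit counts both arrays of a strain as separate samples and contains the replicate 1 arrays, in which the class and the set of arrays cannot be told apart. With 1 mean per strain limma called 4 genes, MF(ALPHA)1, COS8, ASG7 (adjusted p = 0.00106) and HSP82 (adjusted p = 0.0143), so of the genes listed for the block ASG7 alone still passed.

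**Figure D5:**
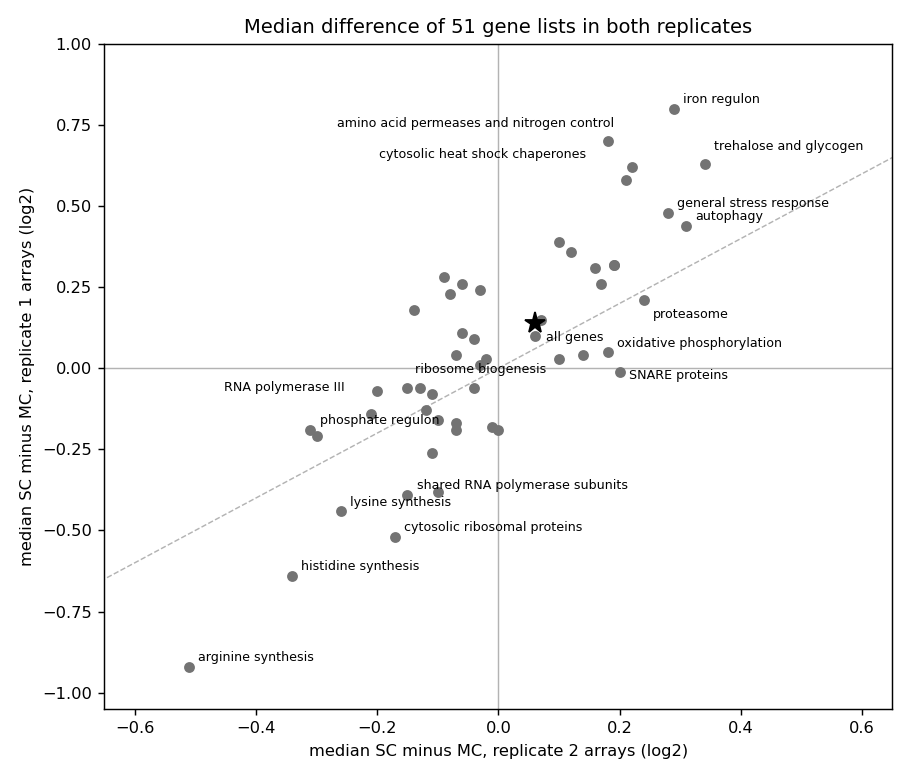
Median SC minus MC difference of each gene group in replicate 2 (x axis) and replicate 1 (y axis), in log2, with all genes as a star and a dashed line where both are equal. Medians are 0.24 and 0.21 for proteasome genes, beside 0.06 and 0.14 for all genes. Heat shock chaperones (0.22 and 0.62) and cytosolic ribosomal proteins (-0.17 and -0.52) lie farther from 0 in replicate 1, and oxidative phosphorylation (0.18 and 0.05) farther from 0 in replicate 2.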

How the data were processed

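The deposited values were 1 intensity per probe set and array. Per the methods, RMA background adjustment and quantile normalization were applied by the authors, whereas the submitters' processing notes name GCRMA. The deposited intensities are linear, and their mean after trimming 2% at each end was 500.2 to 500.3 on every array, so they were used as deposited and their log2 was taken without an offset. Of 10928 probe sets, 5495 match exactly 1 protein-coding gene, giving 5446 genes, and for the 47 genes with several probe sets the brightest was used. No gene was filtered out. Precision is limited by the number of arrays.

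SC and MC arrays of replicate 2 were compared with limma 3.58.1 in R 4.3.3 (a two-group linear model with moderated standard errors and a constant prior variance), with Benjamini-Hochberg adjustment over 5446 genes and a threshold of 0.05. The fit was tested on simulated data with known differences. The same fit was made on replicate 1, and the difference between the replicates was tested as an interaction. Gene groups (56 lists) were described by counts and medians without a test. Members, lists and tests were chosen with earlier results of these data known. Genes named are those called, up to 12 higher and 12 lower ones with the largest differences among bright genes whose classes did not overlap, up to 4 per list with the smallest unadjusted p in the list's direction, and the COS, mating-type, marker and neighbour genes. Genes outside this rule are marked.

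Bounds for COS8 and MF(ALPHA)1 take, on each array, the higher of the background and the measured signal. Same-numbered arrays deviated together from their strain means: r was 0.125 to 0.672 over 10 pairs of strains and 3992 genes (0.125 to 0.369 for SC with MC), which the labels do not state. The alternatives were a trended robust prior, quantile normalization, median centring, probe sets averaged per gene, bright genes alone, all 13 arrays in one fit, all 10 deletion arrays with and without the replicate block, strain means, and leaving out each array.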

Additional observations from a re-analysis of the deposited data

Results flagged for a closer look

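The classes were separated in both replicates but in opposite directions for 4 of the genes named in the text. AFB1, an alpha-specific gene of a secreted protein, read 11.85, 11.75 and 11.99 in SC and 11.55 and 11.73 in MC in replicate 2, and 11.98, 11.85 and 12.05 against 12.34 and 12.36 in replicate 1. The SC minus MC difference was 0.62 higher in replicate 2 (limma adjusted p = 0.264). For MRPL20, a protein of the mitochondrial ribosome, the readings of 9.65, 9.85 and 9.94 against 9.42 and 9.48 in replicate 2 gave way to 9.41, 9.59 and 9.47 against 9.81 and 9.59 in replicate 1, a shift of 0.57 (limma adjusted p = 0.277). SEC22, a SNARE between the endoplasmic reticulum and the Golgi, had differences of 0.24 in replicate 2 and -0.42 in replicate 1, a shift of 0.66 (limma adjusted p = 0.273). PHO81, the phosphate-responsive inhibitor of the Pho80-Pho85 kinase, had -0.42 in replicate 2 and 0.24 in replicate 1, a shift of -0.66 (limma adjusted p = 0.264). None of the 4 shifts passed the test. Some of these separations were slight. In replicate 2 the nearest arrays of the classes stood 0.02 apart for AFB1 and 0.01 for PHO81. For MRPL20 they met to within rounding in replicate 1. Over all genes, 39 were above in SC in replicate 2 and below in replicate 1, and 55 the other way.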

How the results depend on the processing

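Of 1253 pairs of a gene in the text and an alternative setting (91 genes), 1207 kept the sign and the side of the threshold, 4 lost the call, 20 gained one and 22 changed sign in 12 genes. The cause of these changes was not tested. The replicate 2 count of 2 calls became 4 with median centring, 1 with quantile normalization, 1 among genes of mean log2 signal over 8 (COS8 is not among them), 14 with the replicate block, 8 with no replicate block, 4 with strain means, and 1 to 4 on leaving out an array (1 without tR(UCU)M2, 4 without tL(GAG)G). The replicate 1 count of 2 became 12 with centring, 5 with quantile normalization and 100 among the brighter genes, where the count of differences between replicates went from 0 to 13. Quantile normalization gave COS8 a difference of 5.42 with limma's adjusted p at 0.0772, and leaving out an array gave 5.08 to 5.69. MF(ALPHA)1 passed under every alternative listed here.

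The median of heat shock chaperones was 0.44 with and without the replicate block on 10 arrays. That of cytosolic ribosomal proteins was -0.01 after quantile normalization, -0.35 with and without the block, and -0.33 to -0.03 on leaving out an array. Polymerase III had -0.29 after centring and -0.24 to -0.12 on leaving out an array, arginine synthesis -0.77 to -0.25 on leaving out an array, and autophagy 0.13 among brighter genes. The medians of these groups and of the other 6 groups examined most closely kept their sign in the settings run. Over all 56 groups, 0 to 10 medians changed sign in a setting, among them the endoplasmic reticulum (-0.02 centred), histones (0.01 after quantile normalization), methionine and sulfur metabolism (0.01 with the replicate block), the CCT chaperonin (0.04 after quantile normalization and with the block) and polymerase II (0.03 without tL(GAG)G, 0.02 without tR(UCU)M2). Centring lowered the median of all genes by 0.09, from 0.06 to -0.03. In the fits of 10 arrays (replicate block, no block and strain means alike) the sign turned for AFB1 (-0.08), SEC22 (-0.09), CAN1 (-0.66) and URA3 (-0.67). Leaving out tR(CCU)J turned MF(ALPHA)2 (range over the left-out arrays -0.18 to 0.03), STE3 (-0.17 to 0.02), SAG1 (-0.47 to 0.08), HIT1 (-1.0 to 0.11) and DAK1 (-0.08). Leaving out tR(UCU)M2 turned HIS3 (-0.32 to 0.02) and DAK1 (-0.14 to 0.33), leaving out tL(GAG)G turned CAN1 (-0.19 to 0.78) and CLB1 (0.05), and leaving out tM(CAU) turned LYP1 (-1.87 to 0.48). Signals near background, as for ASG7, CAN1, URA3, LYP1, YIR021W-A and IME4, limit what these arrays can order.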
